A study of Homo sapiens with 18 samples.

Results

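The genes described here are 40 stress-response, amino acid synthesis and tRNA charging genes that are known or proposed targets of the transcription factor ATF4. Their rows of the deposited read count table were taken by gene name. The list of names was drawn up with earlier results of these data known, so the set was not chosen independently of them. All 40 names matched 1 row each of the 58735 genes in the table, and all 40 passed the filter on low counts that left 17162 genes for testing. They form 3 subsets: 13 stress targets, which are ATF4 itself, other stress transcription factors and their effectors; 14 enzymes of serine, amino acid and one-carbon synthesis; and 13 cytosolic aminoacyl-tRNA synthetases.

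RNA sequencing was run on 18 libraries of LNCaP, an established androgen-responsive prostate cancer cell line that expresses the transcription factor HOXB13. Every library carried an shRNA against HOXB13 and an inducible rescue construct, which was an empty vector (called EV), HOXB13 of wild-type sequence (WT) or a mutant with alanine in place of T8, T41 and S31 (3A). Cultures spent 48 h in 2% charcoal-stripped serum, which is poor in steroids, before they received 0.1% ethanol (vehicle) or 10 nM R1881, a synthetic androgen, for 24 h. Each of the 6 combinations of rescue and treatment had 3 libraries. The labels do not say whether these came from separate cultures or whether each rescue line is 1 clone, so the p-values measure the spread between libraries, which may be technical, and an effect of a construct and of its line cannot be told apart. No library lacked the shRNA, so nothing here describes the knockdown itself.

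Library totals ran from 22812641 to 30611980 counts, 21253 to 23377 genes had a count, and mitochondrial transcripts held 2.71% to 5.70% of counts. The mitochondrial shares overlapped between rescues of a treatment. Expression is given as counts divided by library size (CPM), with library sizes scaled by the trimmed mean of M-values (TMM). HOXB13, the targeted gene, had 533 ± 33.9 CPM (SD, n = 3) in EV, 536 ± 50.2 in WT and 759 ± 102 in 3A with vehicle, and 416 ± 9.87, 347 ± 26.2 and 507 ± 71 with R1881. The label WT thus did not go with more HOXB13 RNA than the label EV, and EV, WT and 3A name libraries by their labels only. HOXB13 RNA was highest in 3A in both treatments, and its part in the differences below was not tested. All 9 markers of LNCaP and luminal prostate cells were present. Of 11 markers of blood, stromal, endothelial and basal cells 3, CD3E and TP63 among them, were at 0 in all 18 libraries and 8 were below 1 CPM in all 18, and the summed CPM of the 11 was 24.0 to 25.5 in EV, 30.5 to 35.0 in WT and 31.7 to 37.7 in 3A with vehicle and 16.7 to 22.6, 19.7 to 22.8 and 17.98 to 26.01 with R1881. The 3 markers tested were COL1A1, PDGFRB and VWF. With vehicle VWF was called higher than EV in WT (log2 fold change 1.31, edgeR adjusted p = 0.000397) and 3A (1.29, 4.31e-05). With R1881 it was called higher in WT (0.64, 0.0352) and not in 3A (0.28, 0.394). VWF was lower with R1881 than with vehicle in WT (-0.98) and 3A (-1.33), and COL1A1 in WT (-0.47). The part of these markers in the results was not tested.

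When amino acids run short, protein folds badly in the endoplasmic reticulum or haem is lacking, kinases phosphorylate the initiation factor eIF2. General translation then slows, while the ATF4 mRNA, whose upstream reading frames otherwise hold ribosomes back, is translated more. ATF4 pairs with C/EBP proteins on composite promoter elements and raises genes that make, import and charge amino acids, together with stress factors such as DDIT3 (CHOP) and the feedback inhibitor TRIB3. In prostate cancer cells the pathway supports growth under nutrient and folding stress.

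The composite element was searched as the letters TGATGNAA, on either strand, in the 250 bases before each RefSeq start site (assembly GRCh38.p14). The table of promoters held 31 of the 40 genes, and 8 of these 31 (25.8%) had a match: 3 of 12 stress targets (ATF3, CEBPG and CHAC1), 2 of 9 enzymes (ASNS and MTHFD1L) and 3 of 10 synthetases (AARS, GARS and IARS). Of all 27305 genes with a promoter there, 3.89% had a match. A match describes these letters only and is not a shown binding site. To show the match in each subset, windows of 30 bases are given for 1 stress factor, 1 stress effector, 1 enzyme and 2 synthetases, 5′ to 3′ on the gene's strand with the matched letters in capitals. The capitals are the motif itself or its reverse complement, TTNCATCA.
CEBPG, chr19:33374060-33374089, + strand, first matched base at -42 from the start: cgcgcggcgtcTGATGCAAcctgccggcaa
CHAC1, chr15:40953251-40953280, + strand, first matched base at -209: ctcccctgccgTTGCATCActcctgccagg
ASNS, chr7:97872458-97872487, - strand, first matched base at -68: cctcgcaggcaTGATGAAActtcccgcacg
AARS, chr16:70289675-70289704, - strand, first matched base at -187: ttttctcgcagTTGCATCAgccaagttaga
IARS, chr9:92293698-92293727, - strand, first matched base at -13: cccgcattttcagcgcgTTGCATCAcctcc
Of the 8 genes with a match, CEBPG, CHAC1, ASNS, MTHFD1L and GARS were called lower in all 4 comparisons of 3A with EV or WT. AARS and ATF3 were called lower in 3 of the 4, and IARS in none. Among genes without a match, ATF4, DDIT3, TRIB3, PSAT1 and others were also called lower in all 4, and SHMT1 and TARS in none. Whether a match goes with a call was not tested.

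Levels of different genes can be compared only per length, so the deposited FPKM (fragments scaled by gene length and library size) were used for this. In EV with vehicle PSAT1, which makes phosphoserine, was the most abundant of the 40 at 477 ± 23.8 FPKM (SD, n = 3), and ATF4 was next at 339 ± 38.7. GARS, PHGDH, AARS and TRIB3 followed between 140 and 155 FPKM, within each other's spread. At the other end ASNS stood at 5.40 FPKM, VLDLR at 2.81, PPP1R15A at 2.19 and ALDH1L2 at 0.05. The place of ASNS is uncertain, since 44.6% of its exon bases are shared with another gene. Its pseudogene copies together had 3268 counts against 8611 for ASNS. ALDH1L2, a mitochondrial folate enzyme, had 141 counts over all 18 libraries and is too low for its fold changes to be read.

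The largest difference among the groups was between 3A and the other rescues. Of the 40 genes 26 were lower and 0 higher in 3A than in EV with vehicle (edgeR adjusted p under 0.05, where 3.27% of all 17162 genes were called lower and 3.97% higher). Against WT with vehicle 26 were lower and 0 higher (background 2.99% lower and 2.64% higher). With R1881 26 were lower in 3A than in EV (background 4.06% lower and 4.39% higher), and 21 were lower than in WT (background 1.77% lower and 1.41% higher), with 0 higher in either. DESeq2 called 29, 27, 26 and 24. The 40 were listed with earlier results of these data known, so the backgrounds stand beside the counts and do not test the set. The 3A libraries serve in both comparisons of a treatment, so the EV and WT counts are given side by side and are not independent. In bulk RNA fewer cells that hold an RNA and less of it per cell cannot be told apart.

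The 3 subsets differed in how far they were lower in 3A. In 3A against EV with vehicle 10 of 13 stress targets, 8 of 14 enzymes and 8 of 13 synthetases were called lower, with median log2 fold changes of -0.88, -0.47 and -0.35 against a median over all genes of 0.00. Against WT with vehicle the counts were 9, 9 and 8 and the medians -0.84, -0.50 and -0.36. With R1881 the counts were 10, 9 and 7 against EV (medians -0.94, -0.47 and -0.36) and 8, 7 and 6 against WT (medians -0.78, -0.45 and -0.36). The order stress targets, enzymes, synthetases held in each of the 4 comparisons, which share libraries, and the difference between subsets was not tested. ATF4 had the highest FPKM of the stress targets and PSAT1 of the enzymes, and sums over a subset weight such genes most: the stress targets summed to 861 ± 99.3 FPKM in EV, 808 ± 76 in WT and 419 ± 23.1 in 3A with vehicle (SD, n = 3), the enzymes to 1090 ± 55.5, 1040 ± 3.21 and 719 ± 50, and the synthetases to 1020 ± 52.7, 989 ± 11.6 and 764 ± 48.2. In each subset all 3 sums of 3A lay below all 6 of EV and WT.

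**Figure D1:**
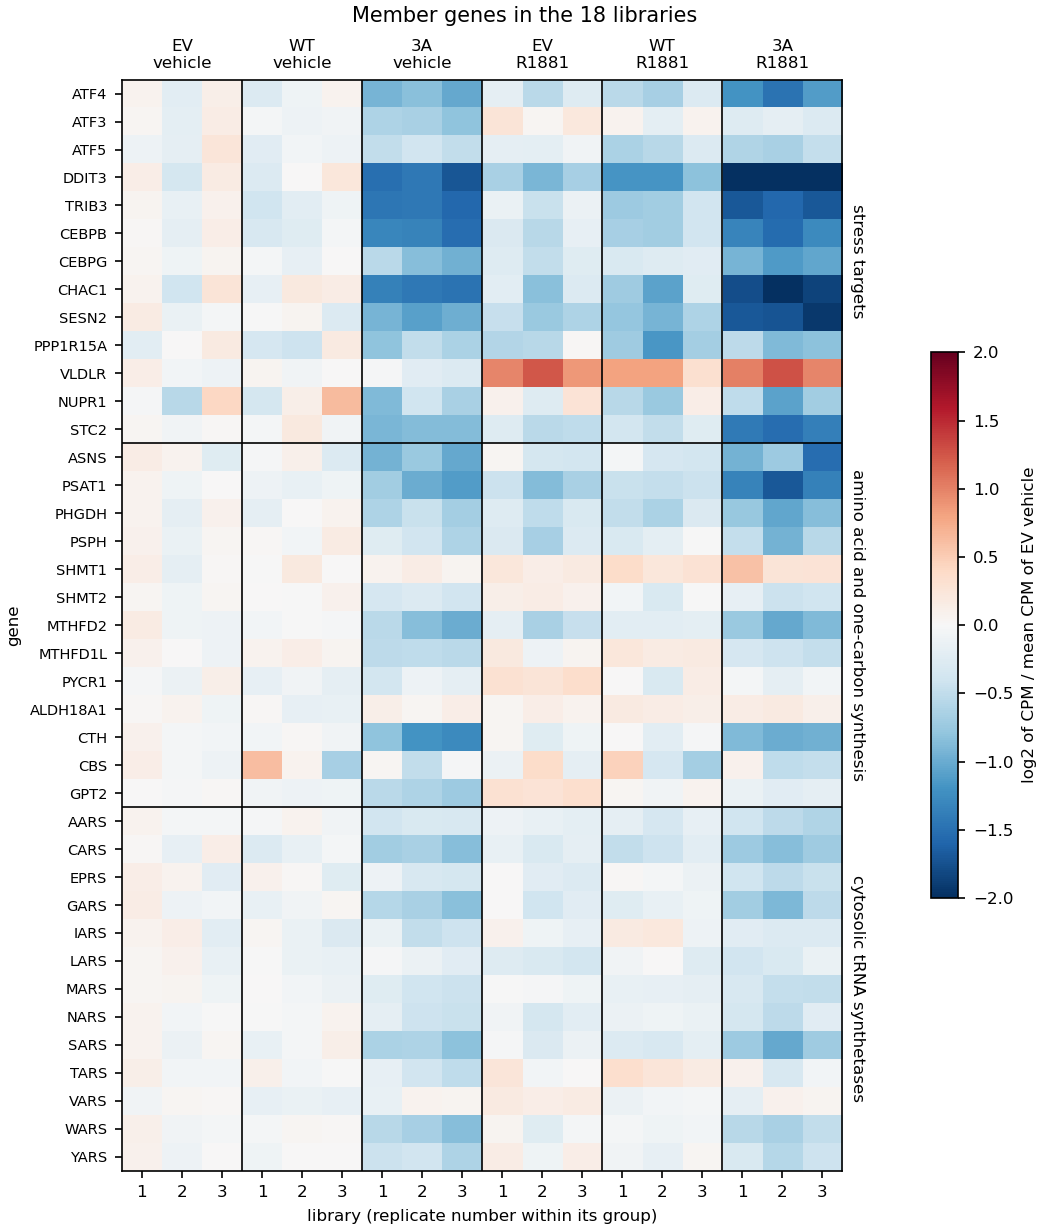
Log2 of CPM in each of the 18 libraries (columns, by rescue and treatment) over the mean CPM of EV with vehicle for 39 of the 40 genes (rows, by subset), with ALDH1L2 left out for its low counts and the colour scale limited to 2 in either direction. With vehicle 29 of the 40 genes (11 of 13 stress targets, 9 of 14 enzymes and 9 of 13 synthetases) had all 3 libraries of 3A below all 6 of EV and WT.

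In single libraries the subsets did not follow that order. All 3 libraries of 3A lay below all 6 of EV and WT with vehicle for 29 of the 40 genes (11 stress targets, 9 enzymes and 9 synthetases), a pattern found for 6.44% of all genes tested. With R1881 this held for 24 (8, 7 and 9; 3.64% of all genes), and in both treatments for 22 (8, 7 and 7; 1.47% of all genes). None of the 40 had all 3 libraries of 3A above the 6 others with vehicle, with R1881 or in both, against 6.15%, 3.82% and 1.59% of all genes. Between treatments, which share no library, 25 genes were called lower in 3A than in EV both with vehicle and with R1881, 96.2% of each list. Of all genes 289 (1.68%) were, which is 51.4% of the 562 called lower with vehicle and 41.5% of the 697 with R1881. NARS was called with vehicle alone and PYCR1 with R1881 alone, and whether their differences changed with treatment was not established (adjusted p of the difference 0.841 and 0.85). Against WT 20 were called in both, 76.9% of the vehicle list and 95.2% of the R1881 list, beside 129 of all genes (0.752%), which is 25.1% and 42.6% of their lists.

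ATF4 (chr22:39519695-39522685, + strand, hg38), the factor that gives the set its name, had 905, 746 and 931 CPM in the 3 EV libraries with vehicle, 711, 810.2 and 905 in WT and 452, 481 and 423 in 3A. With R1881 the values were 759, 595 and 722 in EV, 595, 545 and 711 in WT and 375, 308 and 395 in 3A. The 3A libraries lay below every EV and WT library of the same treatment, while EV and WT overlapped. The log2 fold change of 3A was -0.93 ± 0.13 (SE) against EV and -0.84 ± 0.13 against WT with vehicle (edgeR adjusted p = 3.93e-05 and 0.000271), and -0.94 and -0.78 with R1881 (4.74e-05 and 0.000991). These are RNA levels; ATF4 is regulated mainly in translation, and protein was not measured.

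DDIT3 (chr12:57516588-57521737, - strand), which encodes the stress factor CHOP, had 72.9, 51.8 and 73.8 CPM in EV, 54.6, 66.9 and 77.4 in WT and 23.3, 24.4 and 20.2 in 3A with vehicle. R1881 libraries had 42.3, 35.1 and 41.9 in EV, 29.2, 29.2 and 37.4 in WT and 13.3, 12.02 and 15.3 in 3A. In both treatments the 3A values were below all others, at -1.55 ± 0.15 against EV and -1.55 ± 0.15 against WT with vehicle (edgeR adjusted p = 1.2e-06 and 5.55e-06) and -1.55 and -1.24 with R1881 (2.72e-06 and 8.26e-05). DDIT3 shares 39.6% of its exon bases with other genes, MARS on the opposite strand among them, and the strand setting of the counting is not given in the sources used here, so its counts are uncertain.

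CEBPB, a C/EBP factor that can pair with ATF4, had 176, 153 and 190 CPM in EV, 138, 147 and 168 in WT and 70.1, 68.7 and 60.02 in 3A with vehicle. With R1881 it had 142, 117 and 154 in EV, 109, 107 and 132 in WT and 69.4, 59.6 and 71.6 in 3A. Its 3A libraries formed the lowest group in both treatments without overlap, at -1.39 ± 0.12 and -1.19 ± 0.12 with vehicle (edgeR adjusted p = 6.89e-07 against EV and 7.11e-06 against WT) and -1.04 and -0.79 with R1881. CEBPG, a partner of ATF4 whose promoter window is printed above, was lower in all 4 comparisons, in the order EV and WT with vehicle and EV and WT with R1881 (-0.77, -0.71, -0.70 and -0.77). ATF3, a stress-induced repressor, was lower in 3 of the 4 (-0.69, -0.61 and -0.41), and the last call was lost without library EV R1881 1 or 3 or 3A R1881 3 (-0.40 to -0.38). Where several libraries are named in this way, each was left out alone. ATF5, of which 23.7% of exon bases are shared with another gene, was called against EV alone (-0.45 with vehicle and -0.42 with R1881). The ATF5 call was lost with vehicle without library EV vehicle 3 or 3A vehicle 1 or 3 (-0.43 to -0.31) and with R1881 without library EV R1881 3 or 3A R1881 1 or 2 (-0.41 to -0.38).

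TRIB3 (chr20:362835-397559, + strand), a pseudokinase that restrains ATF4 in a feedback loop, had the smallest adjusted p of the 40 in 3A against EV in both treatments. It had 504, 437 and 515 CPM in EV, 369, 419 and 456 in WT and 179, 181 and 164 in 3A with vehicle. Values with R1881 were 443, 356 and 448 in EV, 295, 301 and 371 in WT and 149.5, 163 and 149.6 in 3A. Every 3A library held less TRIB3 RNA than any EV or WT library of either treatment. The differences were -1.47 ± 0.11 and -1.25 ± 0.11 with vehicle (edgeR adjusted p = 2.67e-07 and 1.71e-06) and -1.43 ± 0.11 and -1.06 ± 0.11 with R1881 (1.52e-07 and 9.98e-06).

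Effectors of the stress response were low in 3A as well. CHAC1, which breaks down glutathione, had 69.4, 50.5 and 79.04 CPM in EV, 59.5, 76.3 and 73.5 in WT and 26.1, 24.6 and 23.8 in 3A with vehicle. CHAC1 with R1881 had 57.5, 37.1 and 54.8 in EV, 40.6, 31.6 and 56.1 in WT and 19.4, 11.6 and 18.5 in 3A. The 3A libraries did not overlap the others within a treatment, at -1.42 ± 0.21 against EV with vehicle (edgeR adjusted p = 0.000104) and -1.60 ± 0.22 with R1881 (5e-05). SESN2, a leucine sensor that restrains mTORC1, had 178, 145 and 156 CPM in EV, 158, 165 and 132 in WT and 83.8, 75.3 and 81.1 in 3A with vehicle. SESN2 with R1881 had 116, 95.4 and 104 in EV, 92.9, 83.7 and 104 in WT and 49.5, 47.9 and 41.9 in 3A. For SESN2 the groups of 3A were again the lowest of each treatment, at -0.99 ± 0.11 against EV with vehicle and -1.18 ± 0.11 with R1881 (edgeR adjusted p = 3.74e-06 and 1.58e-06). STC2, a secreted glycoprotein, had 220.1, 203 and 218 CPM in EV, 209, 244 and 203 in WT and 114, 117 and 118 in 3A with vehicle. STC2 with R1881 had 178, 147 and 149.5 in EV, 166, 153 and 179.7 in WT and 80.1, 74.1 and 82.6 in 3A. The range of STC2 was narrow within each group of 3A, and its fold changes were -0.88 and -0.91 with vehicle and -1.001 and -1.07 with R1881 (edgeR adjusted p between 1.58e-06 and 9.91e-06).

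Of the 13 stress targets 3 were called in none of the 4 comparisons of 3A. VLDLR, a lipoprotein receptor, had 29.2, 25.6 and 24.8 CPM in EV, 27.5, 25.4 and 26.7 in WT and 26.1, 22.8 and 21.9 in 3A with vehicle. These groups overlapped, and the fold change of 3A against EV was -0.17 (95% interval -0.44 to 0.11). NUPR1, a small stress-induced nuclear protein, had -0.63 (95% interval -1.15 to -0.11) and PPP1R15A (GADD34), which directs a phosphatase to eIF2, -0.64 (-1.07 to -0.20). With R1881 the VLDLR libraries of 3A, given further below, all lay above those of WT (0.43) and overlapped those of EV (0.06), without a call.

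**Figure D2:**
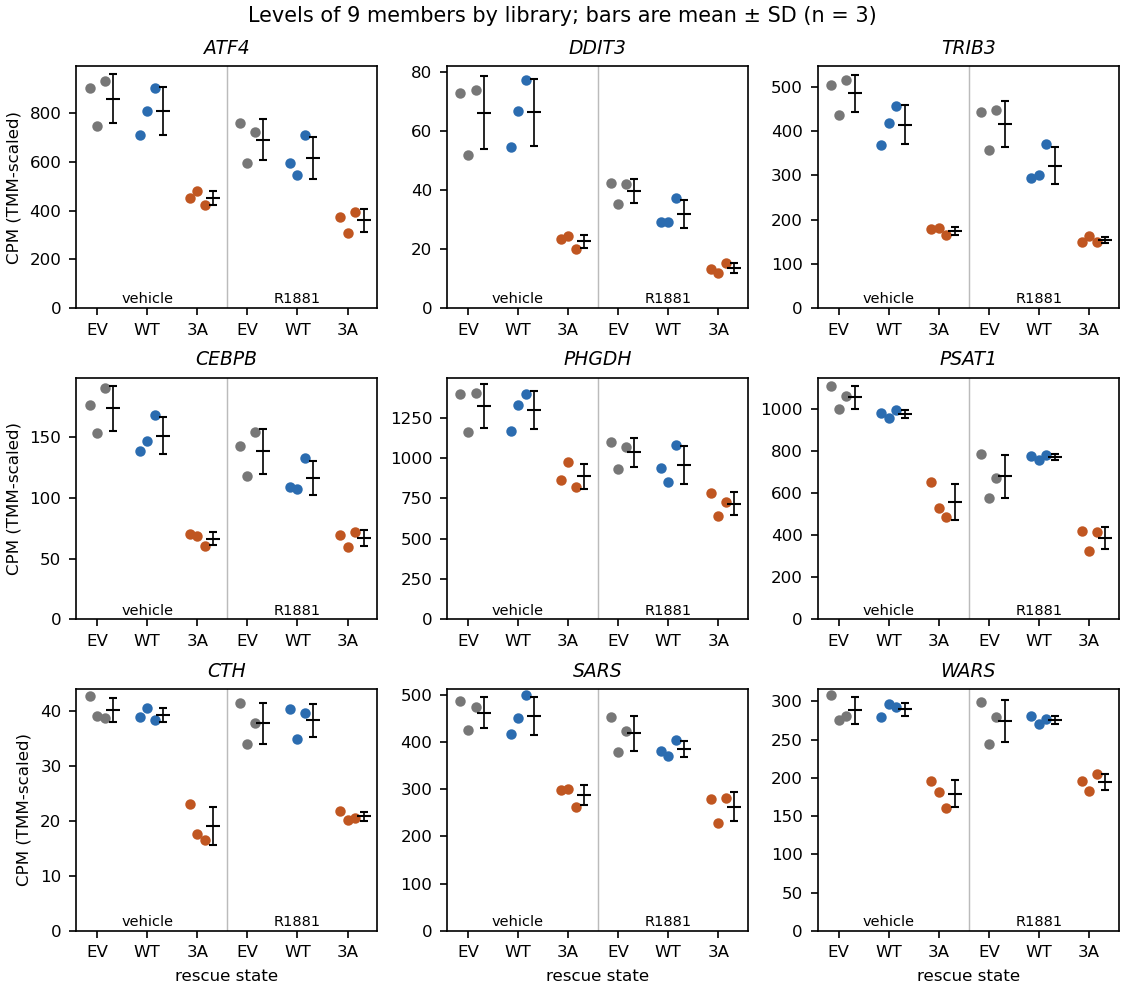
CPM of 9 genes in each library (points), with the mean and SD of the 3 libraries of a group (bars), by rescue and treatment; CTH and WARS were added after their values were seen. For TRIB3 the 6 libraries of 3A, between 149.5 and 181 CPM, lie below all 12 others, the lowest of which has 295.

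Among the enzymes of serine synthesis PSAT1 (chr9:78297143-78330093, + strand), which catalyses the middle step, had 1108, 999 and 1060 CPM in EV, 979, 957 and 995 in WT and 653, 529 and 488 in 3A with vehicle. With R1881 the libraries had 787, 579 and 674 in EV, 777, 757 and 784 in WT and 421, 326 and 416 in 3A. The 3A libraries were below all EV and WT libraries of their treatment, at -0.92 ± 0.12 and -0.81 ± 0.12 with vehicle (edgeR adjusted p = 1.86e-05 and 0.000212) and -0.81 and -0.996 with R1881 (0.000114 and 5.23e-05).

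PHGDH (chr1:119648411-119744226, + strand), the first and committed enzyme of serine synthesis, differed less. It had 1394, 1163 and 1404 CPM in EV, 1168, 1326 and 1394 in WT and 864, 973 and 821 in 3A with vehicle. PHGDH with R1881 had 1100, 932 and 1071 in EV, 940.1, 851 and 1082 in WT and 780.1, 640.4 and 729.6 in 3A. Both groups of 3A lay below the EV and WT libraries of their treatment, at -0.58 ± 0.11 against EV with vehicle and -0.53 ± 0.11 with R1881 (edgeR adjusted p = 0.00191 and 0.00433). With R1881 PHGDH was also called against WT at -0.42 (edgeR adjusted p = 0.042), but not without library WT R1881 1 or 3 or 3A R1881 2 or 3 (-0.43 to -0.32).

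PSPH, the last enzyme of serine synthesis, had 148, 127 and 143 CPM in EV, 142, 134 and 156 in WT and 117, 107 and 90.8 in 3A with vehicle. PSPH with R1881 had 114, 87.5 and 115 in EV, 112, 121 and 138 in WT and 99.6, 72.6 and 95.2 in 3A. With vehicle the 3A libraries were the lowest, and with R1881 they overlapped EV. Against EV its fold changes of -0.41 and -0.24 did not pass the test (edgeR adjusted p = 0.0615 and 0.277). Against WT it was called at -0.45 with vehicle and -0.47 with R1881, and the first call was lost without library WT vehicle 1, 2 or 3 or 3A vehicle 2 or 3 (-0.50 to -0.36) and the second without library WT R1881 1, 2 or 3 or 3A R1881 2 or 3 (-0.54 to -0.35). A pseudogene copy, PSPHP1, had 3008 counts over all libraries against 53691 for PSPH.

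Enzymes downstream of serine and of the folate cycle were divided. MTHFD2, the mitochondrial folate dehydrogenase, was lower in all 4 comparisons of 3A (-0.78 and -0.75 with vehicle, -0.47 and -0.67 with R1881 against EV and WT). The call against EV with R1881 was lost without library EV R1881 1 or 3A R1881 2 or 3 (-0.48 to -0.35). MTHFD2 shares 33.2% of its exon bases with other genes and its relative MTHFD2L and its pseudogenes together had 18325 counts against its own 98240. MTHFD1L, which releases formate in mitochondria, was lower in all 4 (-0.52, -0.61, -0.46 and -0.60 in the same order). SHMT2, the mitochondrial serine hydroxymethyltransferase, was lower in 3 of the 4 (-0.33, -0.36 and -0.44). With vehicle its call against EV was lost without library EV vehicle 1 or 3 or 3A vehicle 1, 2 or 3 (-0.36 to -0.30) and that against WT without library WT vehicle 3 or 3A vehicle 2 or 3 (-0.39 to -0.33). Its cytosolic counterpart SHMT1 was called in none (0.09 against EV with vehicle, 95% interval -0.12 to 0.30).

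CTH, which makes cysteine in the last step of transsulfuration, had the lowest fold changes of the enzymes against EV and WT with vehicle, at -1.07 and -1.04, and was at -0.86 and -0.88 with R1881 (edgeR adjusted p between 2.7e-06 and 0.000113). CBS, which acts one step before it, was called in none (-0.14, 95% interval -0.70 to 0.43, against EV with vehicle), and its reads may be split with a near-identical copy, CBSL. ASNS (chr7:97852118-97872542, - strand), asparagine synthetase, had 26.9, 25.6 and 20.5 CPM in EV, 24.04, 25.98 and 20.2 in WT and 12.6, 14.6 and 12 in 3A with vehicle. ASNS with R1881 had 24.95, 19.1 and 18.8 in EV, 23.7, 19.3 and 18.9 in WT and 12.7, 14.7 and 8.45 in 3A. The ASNS libraries of 3A were below the others in both treatments, at -0.90 ± 0.17 against EV with vehicle and -0.81 ± 0.18 with R1881 (edgeR adjusted p = 0.00182 and 0.00532). Against WT it had -0.84 with vehicle and -0.79 with R1881, the latter call being lost without library WT R1881 1 or 3A R1881 3 (-0.68 to -0.59). Its level is uncertain, since 44.6% of its exon bases are shared with another gene on the same strand.

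GPT2, the mitochondrial alanine aminotransferase, had 266, 259 and 268 CPM in EV, 252, 247 and 248 in WT and 181, 172 and 159.7 in 3A with vehicle. GPT2 with R1881 had 326, 318 and 333 in EV, 270.4, 251 and 279 in WT and 241, 225 and 234 in 3A. The 3A libraries were lowest in both treatments, and GPT2 was called in 3 comparisons (-0.63 and -0.54 with vehicle and -0.48 against EV with R1881; edgeR adjusted p = 8.56e-06, 0.000128 and 0.000236) and not against WT with R1881 (-0.19, 0.189). PYCR1, which makes proline, had 272, 256 and 301 CPM in EV, 247, 262 and 243 in WT and 215, 258 and 245 in 3A with vehicle. PYCR1 with R1881 had 342, 330.2 and 353 in EV, 277, 223 and 307 in WT and 270.2, 243 and 266 in 3A. PYCR1 groups overlapped with vehicle, and its single call, -0.40 against EV with R1881 (edgeR adjusted p = 0.0201), was lost without library EV R1881 3 or 3A R1881 2 (-0.38 to -0.35). PYCR1 shares 29.7% of its exon bases with other genes on both strands, so its counts are uncertain. ALDH18A1, which starts proline synthesis, was called in none (0.10 against EV with vehicle, 95% interval -0.06 to 0.26).

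Of the synthetases, which join amino acids to their tRNAs, SARS (serine) had 488, 425 and 474 CPM in EV, 418, 451 and 499 in WT and 299, 301 and 263 in 3A with vehicle. SARS with R1881 had 453, 378 and 424 in EV, 382, 369.7 and 404 in WT and 280.2, 228 and 282 in 3A. Its 3A libraries were the lowest of each treatment, at -0.69 ± 0.10 and -0.67 ± 0.10 with vehicle and -0.67 and -0.55 with R1881 (edgeR adjusted p = 9.83e-05, 0.000293, 0.000178 and 0.00311). WARS (tryptophan) was lower in all 4 as well (-0.68 and -0.69 with vehicle, -0.50 and -0.50 with R1881). So were GARS (glycine; -0.68, -0.62, -0.50 and -0.54), CARS (cysteine; -0.73, -0.57, -0.55 and -0.39) and YARS (tyrosine; -0.47, -0.44, -0.49 and -0.37). The calls against WT with R1881 were lost for GARS without library 3A R1881 2 (-0.45), for CARS without library WT R1881 2 or 3 or 3A R1881 1, 2 or 3 (-0.42 to -0.31) and for YARS without library WT R1881 1 or 3 or 3A R1881 2 or 3 (-0.38 to -0.30). The YARS call against WT with vehicle was lost without library 3A vehicle 3 (-0.37).

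AARS (alanine), whose window is printed above, had 674, 623 and 625 CPM in EV, 628, 675 and 608 in WT and 493, 518 and 510.3 in 3A with vehicle. AARS with R1881 had 598, 578 and 557 in EV, 563, 509 and 571 in WT and 485, 448 and 422 in 3A. No 3A library overlapped EV or WT of its treatment, yet the differences were small, -0.34 and -0.33 with vehicle (edgeR adjusted p = 0.0113 and 0.0176) and -0.36 and -0.28 with R1881 (0.00755 and 0.0643). The calls with vehicle were lost without library EV vehicle 1 (-0.30) against EV and without library WT vehicle 2 or 3A vehicle 1, 2 or 3 (-0.34 to -0.28) against WT. MARS (methionine) was lower in 3 comparisons (-0.35, -0.30 and -0.39), and its calls with vehicle were lost without library 3A vehicle 3 (-0.31) against EV and without library WT vehicle 1 or 2 or 3A vehicle 2 or 3 (-0.29 to -0.26) against WT. NARS (asparagine) was lower with vehicle alone (-0.35 and -0.36), calls that were lost without library EV vehicle 1 or 3 or 3A vehicle 2 or 3 (-0.35 to -0.30) and without library WT vehicle 2 or 3 or 3A vehicle 2 or 3 (-0.37 to -0.30). EPRS (glutamate and proline) was called only against WT with R1881 (-0.41), a call lost without library WT R1881 1, 2 or 3 or 3A R1881 1, 2 or 3 (-0.45 to -0.38).

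The remaining synthetases were called in none of the 4 comparisons. TARS (threonine) had 496, 438 and 439 CPM in EV, 492, 442 and 457 in WT and 407, 350.3 and 324 in 3A with vehicle. TARS with R1881 had 539, 439 and 462 in EV, 576, 539.5 and 511 in WT and 486, 368 and 443 in 3A. With vehicle its 3A libraries lay below the others but the test was not passed (-0.35, edgeR adjusted p = 0.0605 against EV and -0.36, 0.0552 against WT), and with R1881 they overlapped EV but lay below WT. LARS (leucine) had 272, 282 and 239 CPM in EV, 262, 240.4 and 239 in WT and 261, 245 and 227 in 3A with vehicle. LARS with R1881 had 222, 215 and 205 in EV, 251, 265 and 222 in WT and 203, 215 and 241 in 3A. The LARS libraries of the 3 rescues overlapped in both treatments, and 3A against EV was -0.11 (95% interval -0.31 to 0.08) with vehicle. VARS (valine) was at 0.00 (95% interval -0.18 to 0.17) and IARS (isoleucine), which has the motif printed above, at -0.34 (-0.58 to -0.09) in the same comparison.

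**Figure D3:**
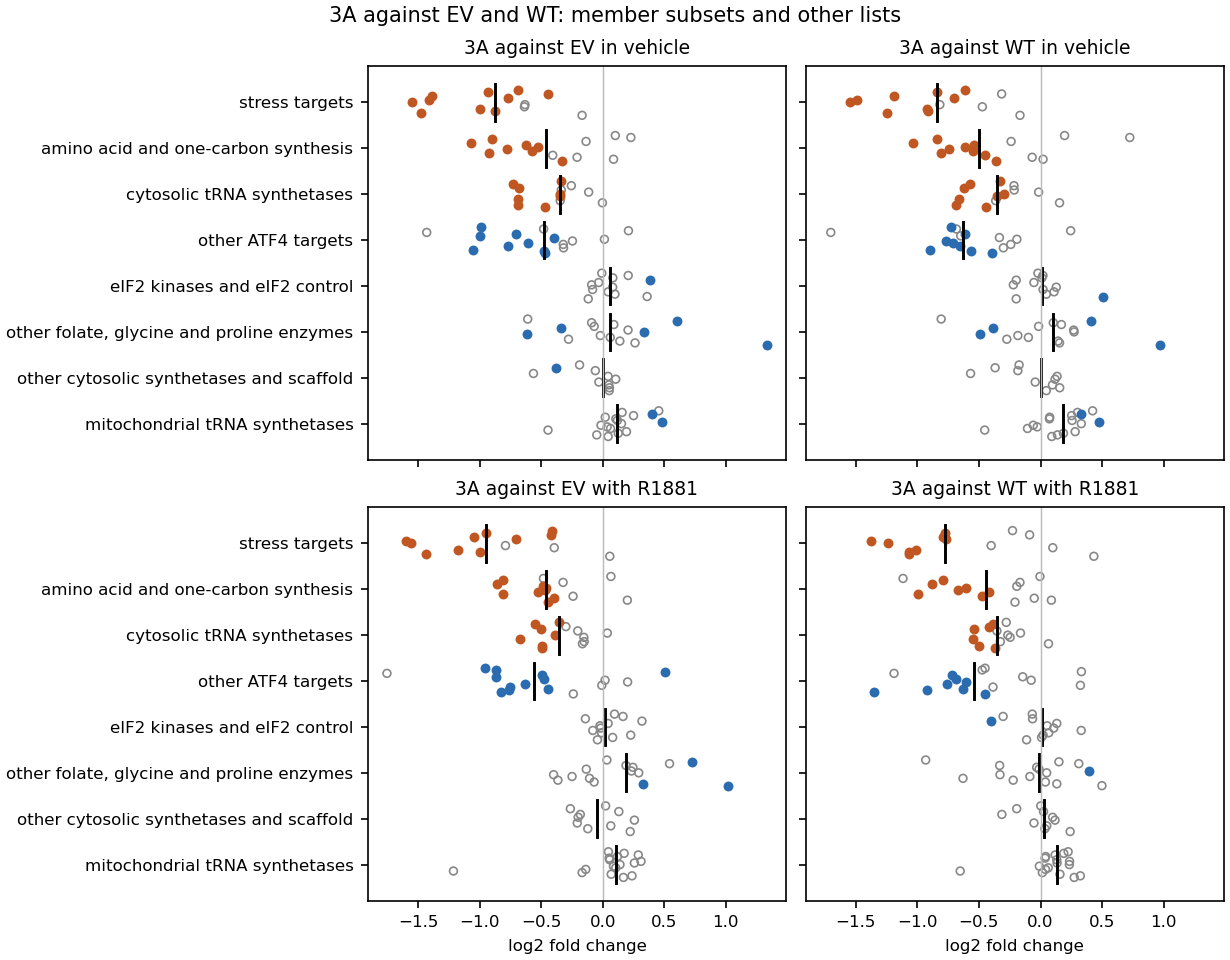
Log2 fold change of 3A against EV or WT, with vehicle or R1881 (panels), for the 3 subsets (orange) and 5 further lists (blue); each point is 1 gene, filled where edgeR's adjusted p is under 0.05, and a black bar is the list's median. The medians of the stress targets lie between -0.94 and -0.78 and those of the other cytosolic and of the mitochondrial synthetases between -0.05 and 0.19.

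Further genes of the pathway were taken from 5 lists drawn up by function, with earlier results of these data known. In 3A against EV and WT with vehicle and EV and WT with R1881, 16 other ATF4 targets had median log2 fold changes of -0.48, -0.63, -0.56 and -0.54. In the same order 9, 8, 10 and 8 of them were called lower (background 3.27%, 2.99%, 4.06% and 1.77%). Of these calls 6, 5, 6 and 7 remained when any 1 library was left out. SLC7A11, the cystine importer (-1.05, -0.90, -0.76 and -0.93), and SLC1A4, a carrier of neutral amino acids (-0.61, -0.71, -0.63 and -0.76), both chosen after their values were seen, were lower in all 4 with any 1 library left out. The single higher call, ERO1A in 3A against EV with R1881 (0.51, edgeR adjusted p = 0.00956), was lost without library EV R1881 1 or 3A R1881 2 or 3 (0.43 to 0.45).

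Genes that act before ATF4, the 12 eIF2 kinases and factors of eIF2 control, had medians of 0.06, 0.02, 0.02 and 0.01. They had 3 calls in all (background 1.41% to 4.39% per direction and comparison), of genes named here after their values were seen. EIF2AK4 (GCN2), the kinase that senses uncharged tRNA, was higher against EV with vehicle at 0.38, a call lost without library EV vehicle 1 or 3 or 3A vehicle 1, 2 or 3 (0.33 to 0.42). It was lower against WT with R1881 at -0.40, which was lost without library WT R1881 1, 2 or 3 or 3A R1881 1, 2 or 3 (-0.46 to -0.33). GCN1, its activator, was higher against WT with vehicle at 0.51, and this was lost without library WT vehicle 3 or 3A vehicle 2 or 3 (0.37 to 0.54).

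Synthetases outside the 40 were mostly not called. Members and lists were both drawn up with earlier results of these data known, so this contrast is described only and was not tested. Of 10 other cytosolic synthetases and scaffold proteins 1 was called in the 4 comparisons, AIMP2 at -0.38 against EV with vehicle (background 3.27% lower). The call was lost without library EV vehicle 1 or 3 or 3A vehicle 2 or 3 (-0.44 to -0.28). The medians of that list were 0.01, 0.00, -0.05 and 0.03. The 17 mitochondrial synthetases, which charge tRNAs inside the organelle, had medians of 0.12, 0.19, 0.11 and 0.13, with 0 called lower (background 3.27%, 2.99%, 4.06% and 1.77%). In the same order 2, 2, 0 and 0 were called higher (background 3.97%, 2.64%, 4.39% and 1.41%). Of these calls 0 remained with any 1 library left out. LARS2 (leucine), named after its values were seen, was called higher with vehicle at 0.48 against EV and 0.48 against WT, and the calls were lost without library EV vehicle 3 (0.44) and without library WT vehicle 3 (0.36).

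Of 18 other folate, glycine and proline enzymes 15 were tested in 3A against EV and WT with vehicle and with R1881. Of these 2, 2, 0 and 0 were lower (background 3.27%, 2.99%, 4.06% and 1.77%) and 3, 2, 3 and 1 higher (background 3.97%, 2.64%, 4.39% and 1.41%). With any 1 library left out 0 of the lower calls remained, and 2, 1, 2 and 1 of the higher calls. TYMS, thymidylate synthase, named after its values were seen, was higher in 3A than in EV (1.33 with vehicle and 1.02 with R1881, edgeR adjusted p = 3.67e-06 and 0.000103), and both calls remained with any 1 library left out.

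WT and EV differed in fewer of these genes than 3A did from either. With vehicle 0 of the 40 were called by edgeR (background 0.769% of all genes), 0 had an unadjusted p under 0.05, and DESeq2 called 0. The subset medians were -0.07 for the stress targets, -0.03 for the enzymes and -0.04 for the synthetases, beside 0.01 for all genes, and 28 of the 40 were below 0. The fold change of ATF4 was -0.09 (95% interval -0.35 to 0.17). With R1881 3 were called lower in WT than in EV (background 4.04% lower and 4.66% higher) and 0 higher: TRIB3 at -0.37 (edgeR adjusted p = 0.0404), PYCR1 at -0.34 (0.0426) and GPT2 at -0.29 (0.0197). An unadjusted p under 0.05 was reached by 11 of the 40, DESeq2 called 6 and the fit with a replicate block 7. The median of the stress targets was -0.25, with 11 of 13 below 0, that of the enzymes 0.05 and that of the synthetases 0.01, beside 0.01 for all genes. For TRIB3 the EV and WT libraries given above overlapped, while all 3 PYCR1 and GPT2 libraries of WT lay below those of EV. The count fell from 3 to 1 without EV R1881 1 and to 0 without EV R1881 3, WT R1881 1 or WT R1881 2. The calls were lost for TRIB3 without library EV R1881 1 or 3 or WT R1881 1 or 2 (-0.33 to -0.31), for PYCR1 without library EV R1881 1, 2 or 3 or WT R1881 1 or 2 (-0.38 to -0.24) and for GPT2 without library EV R1881 3 or WT R1881 1 or 2 (-0.30 to -0.26).

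The androgen R1881 moved a few of the stress targets in every rescue and left most synthetases uncalled. In EV 10 of the 40 were lower and 3 higher with R1881 than with vehicle (background 12% and 13.2%), in WT 11 and 2 (background 9.14% and 11%), and in 3A 6 and 4 (background 12.1% and 12.4%). The share of all genes called was itself large, and the 40 were not tested against it. The median log2 fold changes were -0.33, -0.39 and -0.18 for the stress targets in EV, WT and 3A, -0.02, -0.11 and -0.05 for the enzymes and -0.14, -0.07 and -0.02 for the synthetases. With any 1 library left out 6 of the 13 calls in EV remained, 4 of 13 in WT and 7 of 10 in 3A. The count in EV fell from 13 to 6 without EV vehicle 1 and to 7 without EV R1881 2, and in WT from 13 to 6 without WT vehicle 2 or WT vehicle 3, to 5 without WT R1881 1 and to 4 without WT R1881 2.

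Of the 40 genes 4 were called lower and 1 higher in all 3 rescues, beside 5.52% and 6.82% of all genes. DDIT3, with the values above, was lower with R1881 at -0.73 ± 0.15 in EV, -1.05 ± 0.15 in WT and -0.74 ± 0.16 in 3A (edgeR adjusted p = 0.00079, 1.84e-05 and 0.00107), and the treated and vehicle libraries did not overlap in any rescue. SESN2 was lower likewise, at -0.60, -0.70 and -0.79 (0.000265, 6.71e-05 and 1.34e-05 by edgeR), and STC2 at -0.43, -0.40 and -0.56 (0.00154, 0.00395 and 0.000124), again without overlap. PSAT1 was lower in EV (-0.63), WT (-0.34) and 3A (-0.52; edgeR adjusted p = 0.000326, 0.0463 and 0.00197), and its call in WT was lost without library WT vehicle 1, 2 or 3 or WT R1881 1, 2 or 3 (-0.34 to -0.32).

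VLDLR went the other way: it rose in EV (by 1.04 ± 0.13), WT (0.66 ± 0.13) and 3A (1.26 ± 0.13; edgeR adjusted p = 2.92e-06, 0.000737 and 1.73e-07). The R1881 libraries had 52.3, 62.6 and 48.6 CPM in EV, 46.3, 46.4 and 33.3 in WT and 53.6, 64.4 and 52.2 in 3A, each above the 3 vehicle libraries of its rescue. GPT2 rose in EV by 0.30 and in 3A by 0.45 (edgeR adjusted p = 0.00443 and 0.000103), and in WT it had 0.10 (0.412). ATF3 rose in 3A by 0.45 (edgeR adjusted p = 0.00205) and was not called in EV (0.17) or WT (0.06). Every call of DDIT3, SESN2, STC2, VLDLR, GPT2 and ATF3 named here remained with any 1 library left out.

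ATF4 itself had fold changes of -0.31, -0.39 and -0.33 in EV, WT and 3A, and passed the test in WT alone (edgeR adjusted p = 0.073, 0.0314 and 0.0611), a call lost without library WT vehicle 2 or 3 or WT R1881 1 or 2 (-0.38 to -0.30). With the replicate number as a block, which pairs the libraries in EV, the EV value of -0.31 passed (edgeR adjusted p = 0.0235 for ATF4, R1881 against vehicle in EV). PHGDH was lower in EV (-0.35) and WT (-0.44) and had -0.31 in 3A (edgeR adjusted p = 0.0232, 0.00698 and 0.0502), and the calls were lost without library EV vehicle 1 or 3 or EV R1881 2 (-0.29 to -0.27) in EV and without library WT R1881 2 (-0.35) in WT. The other calls were, in EV, CEBPB, CEBPG, PSPH and MTHFD2 lower and PYCR1 higher, in WT ATF5, CEBPB, CHAC1, PPP1R15A and TRIB3 lower and ALDH18A1 higher, and in 3A CHAC1 and ALDH1L2 lower and SHMT1 higher. Each of these was lost when 1 or more of its libraries was left out. In all 18 genes were called in no rescue, 12 of them synthetases. The share of all genes called in no rescue was not counted, so nothing is concluded from these counts. In single rescues 9.14% to 13.2% of all genes were called in each direction. LARS was the single synthetase called, in EV (-0.31, edgeR adjusted p = 0.0193), and the call was lost without library EV vehicle 1 or 2 or EV R1881 2 or 3 (-0.29 to -0.24).

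**Figure D4:**
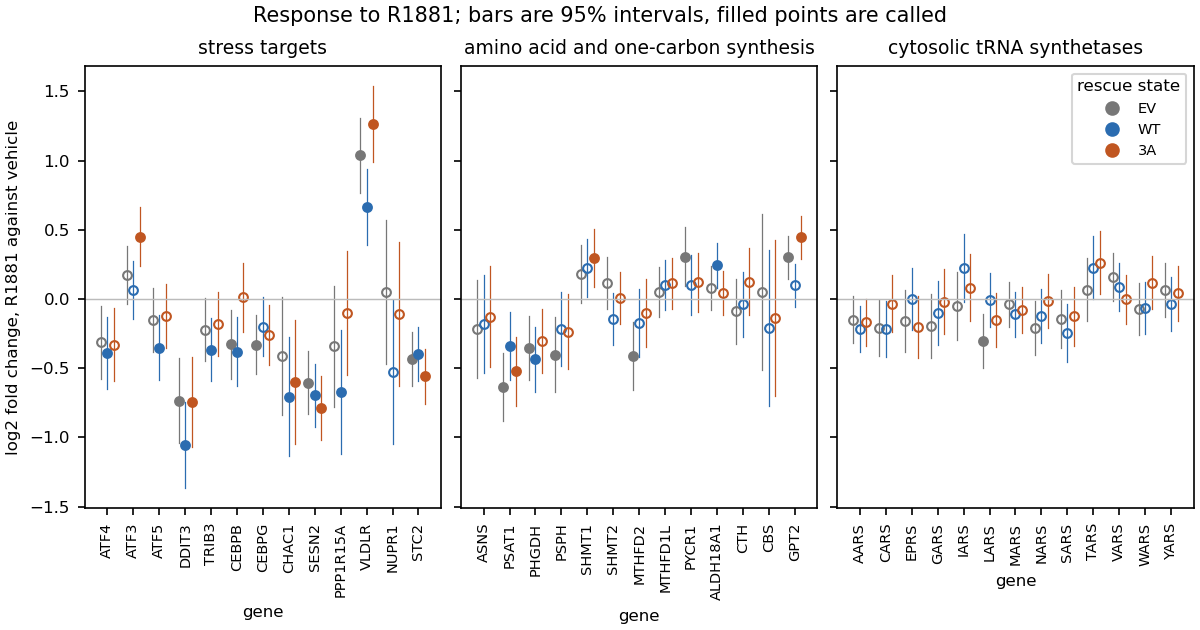
Log2 fold change of R1881 against vehicle with its 95% interval for 39 genes (horizontal axis, with a panel per subset) in EV (grey), WT (blue) and 3A (orange), filled where edgeR's adjusted p is under 0.05. DDIT3, SESN2, STC2 and PSAT1 are below 0 and VLDLR above 0 with filled points in all 3 rescues, and 12 of the 13 synthetases have no filled point. Of all genes 9.14% to 13.2% were called in each direction in single rescues.

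Whether the response to R1881 differed between rescues was tested as an interaction. None of the 40 genes was called by edgeR for WT minus EV, 3A minus EV or 3A minus WT (0 in each, with backgrounds of 0.198%, 0.0117% and 0.0583%), 1, 0 and 4 had an unadjusted p under 0.05, and DESeq2 called 0 in each. The closest, named after their values were seen, were LARS for WT minus EV (0.30, edgeR adjusted p = 0.461) and, for 3A minus WT, VLDLR (0.60, 0.291), CEBPB (0.39, 0.472), ATF3 (0.39, 0.399) and GPT2 (0.35, 0.288). For ATF4 the 95% interval of 3A minus EV ran from -0.39 to 0.35. A call in 1 rescue and not in another is therefore not shown to differ between them.

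The medians of the 16 other ATF4 targets with R1881 were -0.27, -0.41 and -0.19 in EV, WT and 3A. In the same order 6, 7 and 3 of them were lower (background 12%, 9.14% and 12.1%) and 2, 2 and 2 higher (background 13.2%, 11% and 12.4%). Of the lower calls 3, 5 and 3 remained with any 1 library left out, and of the higher calls 2, 1 and 2. SLC7A5, the leucine importer, had a larger response to R1881 than any of the 40 in each rescue. It was lower in EV (-1.95), WT (-1.51) and 3A (-2.30; edgeR adjusted p = 2.59e-09, 1.15e-07 and 3.11e-10). ERO1A, which forms disulfide bonds in the endoplasmic reticulum, rose by 0.81, 1.03 and 1.11 in the same order (edgeR adjusted p = 2.52e-05, 1.61e-06 and 3.22e-07). SLC38A2, a glutamine carrier, rose by 0.72, 0.47 and 1.04, its call in WT being lost without library WT R1881 1 (0.34). GADD45A, a stress-induced growth arrest gene (-1.04, -0.71 and -0.82), and JDP2, a bZIP repressor (-0.69, -0.42 and -0.77), both named after their values were seen, were lower in all 3 with any 1 library left out.

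With R1881 in EV, WT and 3A the background was 13.2%, 11% and 12.4% higher and 12%, 9.14% and 12.1% lower. Of the 12 genes of eIF2 control 3, 4 and 4 were called higher and 0 lower. The 15 folate, glycine and proline enzymes tested had 4, 5 and 6 higher and 1, 0 and 1 lower. Of the 10 other cytosolic synthetases and scaffold proteins 2, 2 and 3 were higher and 0, 1 and 0 lower. The 17 mitochondrial synthetases had 2, 1 and 2 higher and 1, 1 and 1 lower. The cytosolic synthetase DARS (aspartate) rose by 0.31, 0.29 and 0.50 with R1881 in EV, WT and 3A, its call in WT being lost without library WT vehicle 2 or WT R1881 1 or 2 (0.25 to 0.29). VARS2, the mitochondrial synthetase for valine, was lower in all 3 (-0.52, -0.55 and -0.58). OAT, ornithine aminotransferase, rose by 0.84, 1.21 and 0.68. PPP1R15B, the constitutive partner of the eIF2 phosphatase, rose by 0.34, 0.33 and 0.41, its call in WT being lost without library WT vehicle 3 or WT R1881 1 (0.24 to 0.30). With any 1 library left out 2, 0 and 2 of the higher eIF2 calls remained, and 2, 3 and 2 of the folate list. For the other cytosolic list it was 1, 0 and 1, and for the mitochondrial list 2, 0 and 1. Of the lower calls that of the cytosolic list in WT was lost.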

How the data were processed

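RNA from 18 LNCaP libraries, 3 for each rescue (EV, WT, 3A) and treatment (vehicle, R1881), was measured by RNA sequencing. The authors' deposited table holds whole-number read counts and FPKM per gene; per the submitters' processing notes HISAT2 2.0.5, featureCounts 1.5.0-p3 and build hg38 were used. For their order and options, among them the strand setting, the sources used here give nothing. Within each library the deposited FPKM were proportional to count over gene length, within 0.1% for 100% of the 407062 values above 0. The library size used for their scaling was not checked.

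From the counts, genes were kept by filterByExpr (minimum count 10, total 15), which left 17162 of 58735, and scaled by TMM. All 6 groups were fitted together, without covariates, in edgeR 4.0.16 (R 4.3.3) with its quasi-likelihood test (12 residual degrees of freedom), and Benjamini-Hochberg adjustment covered every gene tested; a call is an adjusted p under 0.05. Error bars on fold changes are SEs or 95% intervals. FPKM were used only to compare levels between genes and to compare the sums of a subset between groups, with no test. The procedure was tested on simulated data. Totals of 22812641 to 30611980 counts leave the spread between libraries, not counting error, as the main limit for all members except ALDH1L2. No 2 libraries agreed within sampling noise (chi-square per degree of freedom 8.43 to 50.4).

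The members and lists were chosen with earlier results of these data known. Genes given library by library were, in each subset, the 4 with the largest mean response to R1881 among those of at least 1 CPM, plus ATF4, DDIT3, TRIB3, ASNS, PHGDH and PSAT1, and up to 3 called genes with the smallest adjusted p in each comparison of rescues; of each other list up to 3 with the smallest p over the responses. Some genes of these lists are not reported here. Alternatives were RLE size factors, DESeq2 1.42.0, no filter, a filter of 1 CPM in 3 libraries, only the groups compared, a replicate block and each library left out; leaving out the 5 members that share at least 20% of exon bases with another gene (GENCODE 29) was chosen after seeing the data. Same-numbered libraries deviated together in every pair, with correlations of deviations of 0.163 to 0.198 for R1881 in EV and 0.105 to 0.154 for 3A against EV with R1881, so the numbers count as pairs there. Elsewhere at least 1 pair was under 0.1, narrowly so for WT against EV with R1881 (0.0986 to 0.158). The main fit leaves all pairing out, and counts with a replicate block are given below. RefSeq promoter sequences were matched by current symbol and searched on both strands.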

Additional observations from a re-analysis of the deposited data

How the results depend on the processing

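Of the 2627 values recomputed under an alternative, 2384 kept their direction and side of the threshold, or lay within 1.5 times a count or 1 SD of a median. The counts of called members in 3A against EV and WT stayed within 1.5 times in every alternative (22 to 27 and 20 to 26 with vehicle, 23 to 26 and 15 to 19 with R1881, when 1 library was left out). Counts that moved further when 1 library was left out ranged from 6 to 12 for R1881 in EV, 4 to 13 for R1881 in WT and 0 to 4 for WT against EV with R1881. With only the groups compared R1881 in WT gave 7 called members, DESeq2 gave 6 for WT against EV with R1881, and without a filter WT minus EV response gave 1. With a replicate block the counts were 15, 17 and 14 for R1881 in EV, WT and 3A, with vehicle 0 for WT against EV and 31 and 29 for 3A against EV and WT, and with R1881 7, 28 and 26. Where the numbers pair the libraries, the block lost no call of a member given library by library. For R1881 in EV it added, of these members, only the call of ATF4 above. For 3A against EV with R1881 members not called in the main fit were not recomputed singly, so added calls there are not named. Without the 5 members that share exon bases the counts were 10, 11 and 9 for R1881, 0, 22 and 23 with vehicle and 2, 21 and 18 with R1881. Medians that moved by more than the replicate spread with 1 library left out were those of the synthetases (R1881 in WT -0.0805 to -0.0424, and -0.0539 without a filter; WT against EV -0.0902 to 0.0211 with vehicle and -0.0793 to 0.0614 with R1881; 3A against EV -0.443 to -0.312 and against WT -0.443 to -0.305 with vehicle and -0.405 to -0.299 with R1881; 3A minus WT response -0.00221 to 0.139), the enzymes (R1881 in WT -0.117 to -0.0136 and in 3A -0.118 to 0.0562; 3A against WT -0.535 to -0.426 with vehicle and -0.52 to -0.346 with R1881) and the stress targets (3A minus WT response 0.134 to 0.354). Values near 0 that changed sign for R1881 were TARS in EV (-0.00608 without EV R1881 1, range with 1 library left out to 0.146), LARS in WT (0.00715 without a filter, 0.0398 without WT vehicle 1 and 0.0687 without WT R1881 3, range from -0.0578), CEBPB in 3A (-0.055, -0.00564 and -0.0367 without 3A vehicle 3, 3A R1881 1 or 3A R1881 3, range to 0.0887) and ASNS in 3A (0.0767 without 3A R1881 3, range from -0.311). The cause of these changes was not tested. Depth limits ALDH1L2, with 141 counts in all.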
